A study of Mus musculus with 12 samples.

Results

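The genes of sterol and fatty acid synthesis were followed in bone marrow RNA from wild-type mice and from mice carrying combinations of mutations found in acute myeloid leukemia. The set was defined by gene symbol and held 34 genes, of which 33 were among the 12199 genes of the deposited count table and all 33 passed the filter on low counts (12175 genes tested). It was made of 23 sterol genes (18 enzymes from acetyl-CoA to cholesterol and 5 regulators or carriers) and 10 fatty acid genes. The remaining gene, Me1, was not analysed here.

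Cells make cholesterol from acetyl-CoA through mevalonate, farnesyl pyrophosphate, squalene and lanosterol. The transcription factor SREBP2 drives most enzymes of that route, SREBP1 drives those that make and desaturate fatty acids, and both are held in the endoplasmic reticulum by SCAP and INSIG proteins when membranes are rich in sterol. Desaturases place double bonds in the finished fatty acids, SCD enzymes in saturated ones and FADS enzymes in polyunsaturated ones.

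The libraries were made from total RNA of whole bone marrow mononuclear cells of C57BL/6 mice after globin mRNA depletion. WT denotes Wild type, DF denotes Dnmt3aFlox/+:MxCre with Flt3 ITD/+, TF denotes Tet2+/- with Flt3ITD/+, and TFD denotes the triple combination, Tet2+/- with Flt3ITD/+, Dnmt3aFlox/+ and MxCre. By the study's methods all mice, WT included, received poly(I:C) as adults, an agent that induces the Mx promoter driving Cre, and marrow was analysed some weeks later. The Flt3 internal tandem duplication and the Tet2 allele are present in the germ line, whereas the floxed Dnmt3a allele is removed only after induction, and the labels of WT and TF name no Cre. WT, DF and TF each had 3 libraries and TFD had 2, since the third TFD sample has no column in the table and was not analysed here.

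Library totals ranged from 8274153 to 15900904 counts. Gene-level counts did not show fewer reads of the disrupted genes in the genotypes that carry them: Tet2 differed from WT by 0.20 (TF) and 0.25 (TFD) on the log2 scale, with adjusted p = 0.33 and 0.318, and Dnmt3a by -0.15 (DF) and 0.29 (TFD), with adjusted p = 0.578 and 0.382. Where the allele is not labelled, Tet2 was higher in DF by 0.49 (adjusted p = 0.0261) and Dnmt3a higher in TF by 0.58 (adjusted p = 0.0444). Flt3 was higher by 0.93, 1.38 and 1.94 in DF, TF and TFD (adjusted p = 0.0185, 0.0023 and 0.000552). The marrow differed in cell markers as well, the counts of which are to be read beside the 21.0%, 19.0% and 14.7% of all genes called higher and the 16.6%, 15.6% and 11.6% called lower in DF, TF and TFD. All 12 B-lineage markers were lower than in WT in each mutant genotype, with a summed level of 627 to 770 CPM (counts scaled by the library total times its TMM normalization factor) in WT, 17.7 to 31.5 in DF, 27.5 to 102 in TF and 23.4 to 23.5 in TFD; Pax5, Vpreb1, Igll1 and Rag1 were at 0 in at least 1 mutant library. Of 9 erythroid markers tested, 9, 7 and 7 were lower in DF, TF and TFD, with sums of 1422 to 1873 CPM in WT, 294 to 427 in DF, 552 to 1490 in TF and 517 to 652 in TFD. Tfrc alone stood at 662 to 929 CPM in WT and 220 to 352 in DF. The mean log2 level of the list against WT was -3.84 to -3.39 in DF, -2.09 to -0.16 in TF and -2.13 to -1.65 in TFD. Of 10 monocyte and macrophage markers, 7, 7 and 6 were higher and 2, 0 and 1 were lower, with sums of 2216 to 2447 CPM in WT and 5905 to 7162 across the mutant libraries. T and NK cell markers (9 tested) were lower for 5, 2 and 3 genes, with 1 gene higher in TF, and had sums of 97.5 to 104 CPM in WT, 78.4 to 89.3 in DF, 81.8 to 126 in TF and 53.5 to 79.0 in TFD. Nkg7 alone stood at 42.2 to 46.9 CPM in WT and 46.6 to 69.4 in DF. The mean log2 level of the list against WT was -1.41 to -1.03 in DF, -1.07 to 0.26 in TF and -1.39 to -1.15 in TFD. Cycling markers (12 tested) were lower for 4, 2 and 6 genes, with sums of 6028 to 6412 CPM in WT and 4681 to 5559 across the mutant libraries. In TF the T and NK and cycling counts were near the share of all genes called lower. Stem and progenitor markers (7 tested, Flt3 among them) were higher for 3, 2 and 3 genes, with 1 gene lower in DF, and had sums of 153 to 169 CPM in WT, 304 to 326 in DF, 233 to 333 in TF and 298 to 360 in TFD. Neutrophil markers (12 tested) were higher for 3 genes in DF, lower for 3 in TF, and higher for 1 and lower for 1 in TFD, with sums of 52804 to 65417 CPM in WT, 61759 to 84088 in DF, 37998 to 49761 in TF and 25682 and 49883 in TFD. General leukocyte markers (5 tested) were higher for 2, 2 and 1 genes. TF replicate 3 stood apart from the other TF libraries, with the highest B-lineage (102 CPM) and erythroid (1490 CPM) sums of any mutant library. In whole marrow, fewer cells of a type and less RNA per cell cannot be told apart, and the part of these marker shifts in the results that follow was not tested.

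Part of the sterol genes rose in each mutant genotype. Of the 23 sterol genes, 13 rose and 0 fell in DF, 13 rose and 0 fell in TF, and 7 rose and 0 fell in TFD (adjusted p under 0.05, edgeR quasi-likelihood test over all genes), so that 10, 10 and 16 did not pass the test. Across all genes tested, 21.0% were called higher and 16.6% lower in DF, 19.0% higher and 15.6% lower in TF, and 14.7% higher and 11.6% lower in TFD. With library totals in place of normalization factors, the split of all genes in DF turned from 2560 higher and 2023 lower to 1926 higher and 2622 lower, whereas the 13 sterol calls stayed at 13. No sterol gene was lower even at an unadjusted p under 0.05, and DESeq2 likewise called 0 lower. For DF, TF and TFD, the median log2 fold change of the 23 genes was 0.59, 0.52 and 0.32, beside medians of 0.05, 0.02 and 0.01 over all genes. In all, 7 of the sterol genes, Hmgcs1, Mvk, Mvd, Fdps, Cyp51, Insig1 and Srebf1, were called in all 3 genotypes. Without TF replicate 3 the TF count was 9 higher and 0 lower, and without WT replicate 2 or TFD replicate 1 the TFD count was 3 higher, near the share of all genes then called higher in TFD (1395 of 12145 and 1324 of 12165). The 3 comparisons share the WT libraries, so that these calls are not independent of each other.

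**Figure D1:**
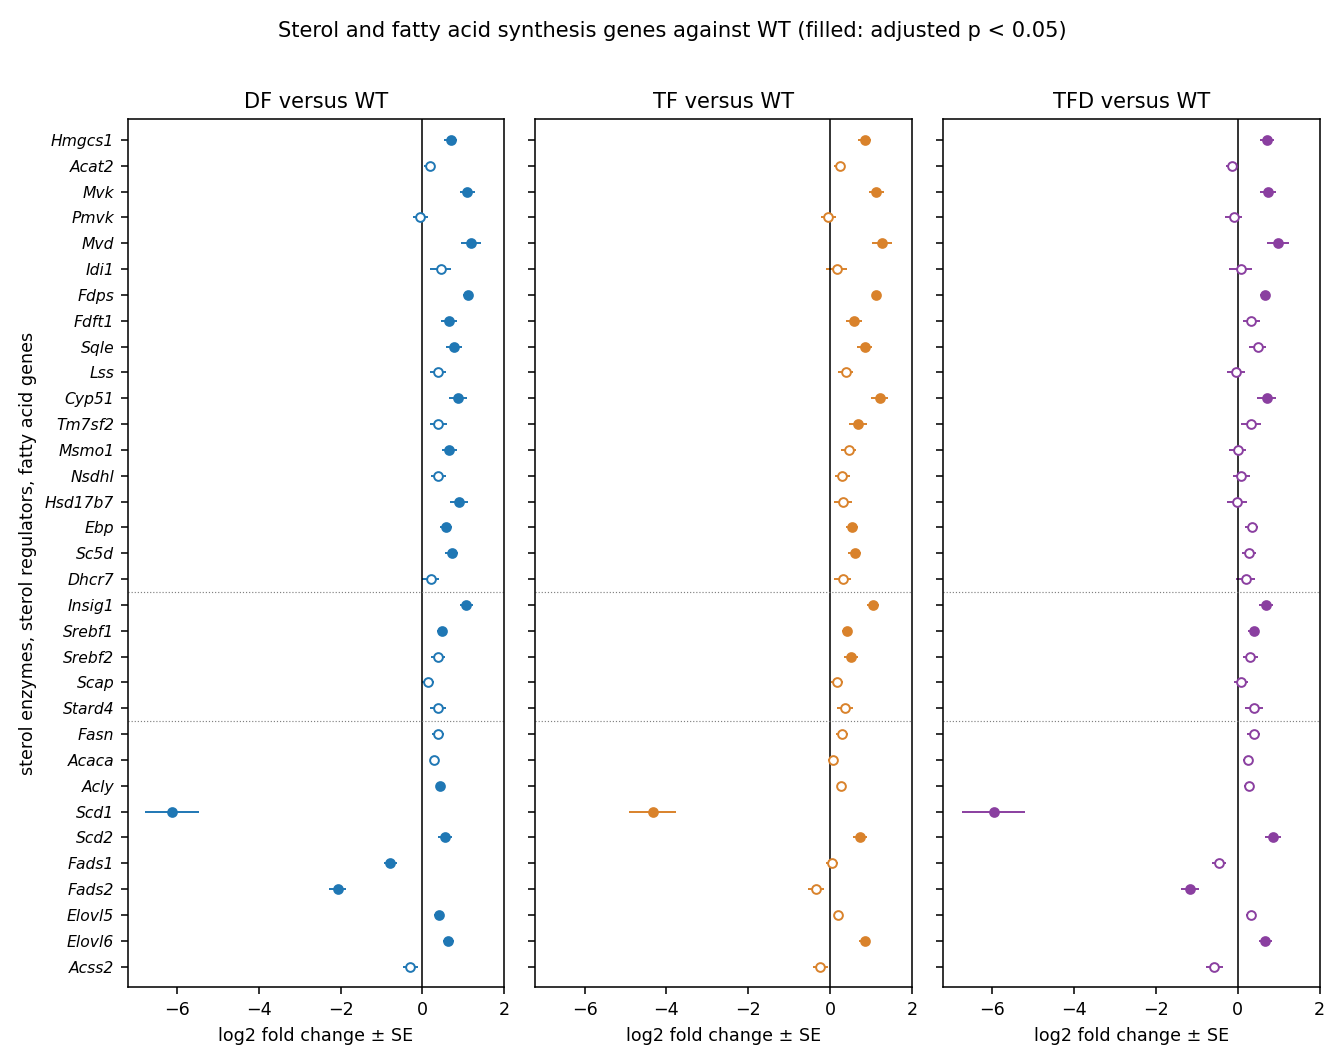
Log2 fold change against WT (x axis, bars ± SE) of the 33 genes (y axis, in pathway order, sterol enzymes above, regulators in the middle and fatty acid genes below) in DF, TF and TFD, with filled points for adjusted p under 0.05. The sterol genes sit to the right of 0 in most rows, and Scd1 lies far to the left at -6.13, -4.33 and -5.97.

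Promoter windows are shown for 4 sterol genes called in every mutant genotype and for the desaturase gene Fads2, which fell in DF and TFD and was not called in TF. Each runs from 250 bases before to 50 bases after a RefSeq gene start (GRCm38.p6), 5′ to 3′ on the gene's strand. Capitals mark CCAAT, the box bound by NF-Y, and TCACNCCAC, a form of the sterol regulatory element bound by SREBP, on either strand (CCAAT reads ATTGG on the other strand). The windows are chr13:119690101-119690400 on the plus strand for Hmgcs1, chr5:114444019-114444318 on the plus strand for Mvk, chr5:4104648-4104947 on the minus strand for Cyp51, chr5:28071162-28071461 on the plus strand for Insig1 and chr19:10101454-10101753 on the minus strand for Fads2.
Hmgcs1: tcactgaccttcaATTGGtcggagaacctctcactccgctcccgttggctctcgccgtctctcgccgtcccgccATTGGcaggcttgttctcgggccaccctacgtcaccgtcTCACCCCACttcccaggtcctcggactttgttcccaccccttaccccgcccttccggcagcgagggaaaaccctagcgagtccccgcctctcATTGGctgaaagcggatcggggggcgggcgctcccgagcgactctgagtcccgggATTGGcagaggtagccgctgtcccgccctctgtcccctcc
Mvk: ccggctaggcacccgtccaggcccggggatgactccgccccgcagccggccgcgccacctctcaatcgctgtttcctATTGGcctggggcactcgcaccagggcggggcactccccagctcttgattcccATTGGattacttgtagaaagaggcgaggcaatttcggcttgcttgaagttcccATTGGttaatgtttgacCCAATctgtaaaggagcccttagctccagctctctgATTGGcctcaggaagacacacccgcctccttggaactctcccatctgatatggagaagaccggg
Cyp51: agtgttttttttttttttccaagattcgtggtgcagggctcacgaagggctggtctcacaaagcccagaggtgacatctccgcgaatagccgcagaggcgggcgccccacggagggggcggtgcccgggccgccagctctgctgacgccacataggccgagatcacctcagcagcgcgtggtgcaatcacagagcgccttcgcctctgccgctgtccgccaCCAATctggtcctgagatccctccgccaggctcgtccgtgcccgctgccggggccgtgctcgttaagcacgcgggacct
Insig1: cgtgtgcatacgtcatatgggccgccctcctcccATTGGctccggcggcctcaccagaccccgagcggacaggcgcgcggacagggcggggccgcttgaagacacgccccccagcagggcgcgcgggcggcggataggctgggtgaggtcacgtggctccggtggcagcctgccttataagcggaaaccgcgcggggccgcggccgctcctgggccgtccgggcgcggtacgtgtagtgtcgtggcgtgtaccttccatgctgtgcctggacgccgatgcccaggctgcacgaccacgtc
Fads2: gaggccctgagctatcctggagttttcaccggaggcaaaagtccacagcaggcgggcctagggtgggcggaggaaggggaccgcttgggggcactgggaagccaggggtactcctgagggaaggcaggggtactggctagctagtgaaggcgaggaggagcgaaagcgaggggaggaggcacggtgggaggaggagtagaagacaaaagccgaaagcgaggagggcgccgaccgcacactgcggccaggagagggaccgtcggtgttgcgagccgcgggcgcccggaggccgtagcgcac

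RefSeq windows were matched for 26 of the 33 genes, 19 sterol and 7 fatty acid genes. Those of Mvd and Srebf1, also called in every mutant genotype, were among them but are not printed above. A CCAAT match was in a window of 17 of 19 sterol genes (89.5%) and 4 of 7 fatty acid genes (57.1%), against 43.1% of the genes tested and 41.1% of all genes with a window. Fads2, the fatty acid gene printed above, was not among those 4. The Sp1 box GGGCGG was in 18 of 19 sterol genes (94.7%) and 3 of 7 fatty acid genes (42.9%), against 68% of the genes tested and 38.2% of all. The E-box CACGTG was in 5 sterol genes (26.3%) and 1 fatty acid gene (14.3%), against 11.9% and 8.09%. The exact letters TCACNCCAC occurred in 1 sterol gene, Hmgcs1, 137 bases before its start, and in 1.36% of the genes tested. All 4 motifs were searched on both strands, matches of CCAAT inside other motifs were not removed, and a match describes letters only. Fdps, Fdft1, Sqle, Stard4, Scd1, Scd2 and Fads1 had no entry.

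The first stretch of the route, from acetyl-CoA to farnesyl pyrophosphate, has 7 of the enzymes. Of these, Hmgcs1, Mvk, Mvd and Fdps rose in every mutant genotype, and Acat2, Pmvk and Idi1 passed the test in none. Fdps (chr3:89093588-89101967, minus strand, mm10), which makes farnesyl pyrophosphate, stood at 30.1, 26.2 and 31.1 CPM in the WT libraries, 68.7, 55.9 and 65.2 in DF, 65.3, 60.5 and 65.2 in TF, and 47.3 and 45.5 in TFD. No mutant library overlapped WT, and both TFD libraries lay between WT and the double mutants. A lack of overlap between a genotype and WT, here and for the genes below, was common in these data. Of all 12175 genes, 3504, 3173 and 3164 lay wholly above WT in DF, TF and TFD, and 2737, 2790 and 2858 wholly below. On the log2 scale Fdps rose by 1.12 ± 0.11 (SE, as for all values after ±) in DF, 1.13 ± 0.11 in TF and 0.67 ± 0.12 in TFD (adjusted p = 1.9e-05, 1.66e-05 and 0.00153).

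Hmgcs1 (chr13:119690351-119708260, plus strand) encodes the synthase that condenses acetoacetyl-CoA to HMG-CoA. It measured 38.8, 41.7 and 36.6 CPM in WT, 61.6, 55.0 and 72.3 in DF, 64.5, 58.7 and 88.1 in TF, and 58.9 and 69 in TFD. All mutant libraries lay above WT, and Hmgcs1 rose by 0.69 ± 0.16, 0.85 ± 0.16 and 0.71 ± 0.17 (adjusted p = 0.00424, 0.00134 and 0.00836). Mvk, the kinase that phosphorylates mevalonate, measured 4.76, 3.47 and 4.30 CPM in WT, 9.21, 8.88 and 9.11 in DF, 8.56, 10.5 and 8.76 in TF, and 7.63 and 6.42 in TFD. Again the groups did not overlap, and Mvk rose by 1.10 ± 0.18, 1.14 ± 0.18 and 0.74 ± 0.20 on the log2 scale. Mvd, which decarboxylates mevalonate pyrophosphate, measured 9.61, 4.33 and 5.55 CPM in WT against 12.4 to 16.6 in DF, 12.8 to 18.4 in TF, and 14.3 and 11.9 in TFD. Its rises of 1.19 ± 0.25, 1.27 ± 0.25 and 0.99 ± 0.28 were the largest of the sterol genes in each genotype, with WT replicate 1 well above the other WT libraries.

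The other 3 enzymes of this stretch were not called. Acat2, a thiolase that makes acetoacetyl-CoA, differed from WT by 0.18 (DF), 0.23 (TF) and -0.14 (TFD) on the log2 scale. Pmvk, the kinase between Mvk and Mvd, had -0.05, -0.05 and -0.10, each with an SE of 0.18 to 0.20. Idi1, the isomerase of isopentenyl pyrophosphate, had 0.45, 0.16 and 0.07 with SEs of 0.25 to 0.28. Leaving out 1 library removed the TFD call of Hmgcs1 (TFD replicate 2, adjusted p = 0.065), of Mvk (WT replicate 2 or TFD replicate 1, and also with only the groups compared, adjusted p up to 0.114) and of Mvd (WT replicate 2 or 3 or TFD replicate 1, adjusted p up to 0.12), and no DF or TF call of this stretch was lost that way.

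Between squalene and lanosterol, Fdft1 (squalene synthase) and Sqle (squalene epoxidase) rose in DF and TF but Lss, the lanosterol synthase, did not pass the test in any genotype. Sqle measured 14.5, 16.1 and 16.2 CPM in WT, 26.7, 20.4 and 33.1 in DF, 25.5, 23.6 and 35.2 in TF, and 20.5 and 23.3 in TFD. Every mutant library was above WT, and Sqle differed from WT by 0.77 ± 0.19 (DF), 0.85 ± 0.19 (TF) and 0.49 ± 0.21 (TFD) on the log2 scale (adjusted p = 0.00693, 0.0044 and 0.106). With the replicate block both Sqle and Fdft1 were also called in TFD (adjusted p = 0.0265 and 0.0239). Fdft1 had 0.65 ± 0.19, 0.58 ± 0.19 and 0.33 ± 0.22, and its calls in DF (without WT replicate 1, WT replicate 2 or DF replicate 3, adjusted p up to 0.096) and TF (without WT replicate 1, WT replicate 2, TF replicate 1 or TF replicate 3, adjusted p up to 0.124) each rested on single libraries. Lss had 0.39, 0.38 and -0.05 on the same scale.

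After lanosterol, 5 of 8 enzymes rose in DF, 4 in TF and 1 in TFD. Called throughout was Cyp51, the lanosterol demethylase, at 23.6, 28 and 24.4 CPM in WT, 40.7, 40.9 and 57.3 in DF, 55.9, 42.6 and 78.1 in TF, and 36.1 and 47.0 in TFD. It did not overlap WT in any mutant library and rose by 0.87 ± 0.21, 1.22 ± 0.21 and 0.71 ± 0.23 on the log2 scale (adjusted p = 0.00631, 0.000937 and 0.0367), although its TFD call was lost without WT replicate 1, 2 or 3 or TFD replicate 2 (adjusted p up to 0.208). Ebp, a sterol isomerase, rose by 0.59 ± 0.14 in DF and 0.54 ± 0.14 in TF, with 0.34 ± 0.16 in TFD (adjusted p = 0.138). Sc5d, a sterol desaturase, rose by 0.72 ± 0.15 in DF and 0.60 ± 0.15 in TF, with 0.27 ± 0.17 in TFD (adjusted p = 0.278).

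The remaining late enzymes were called in 1 genotype or none. Hsd17b7, a ketoreductase of the demethylation steps, measured 13.3, 12.3 and 11.4 CPM in WT, 18.5, 18.3 and 32.7 in DF, 14.4, 15.9 and 16.1 in TF, and 13.9 and 10.3 in TFD. It rose in DF by 0.90 ± 0.21 (adjusted p = 0.00589), with 0.32 ± 0.22 in TF and -0.01 ± 0.24 in TFD, while the difference between DF and TF was not called (adjusted p = 0.141). DF replicate 3 was far above the other DF libraries, and TFD overlapped WT. Leaving out 1 library at a time, the DF value of Hsd17b7 ran from 0.55 to 1.05. Msmo1, the methyl oxidase of the same steps, rose in DF by 0.66 ± 0.19 (adjusted p = 0.0146, lost without WT replicate 1, WT replicate 3 or DF replicate 3, adjusted p up to 0.0847), with 0.45 ± 0.19 in TF and 0.01 ± 0.21 in TFD. Tm7sf2, a sterol reductase, rose in TF by 0.68 ± 0.21 (adjusted p = 0.0263), a call lost under DESeq2 and without any 1 of WT replicate 1, WT replicate 2 or the 3 TF libraries (adjusted p up to 0.0913). Nsdhl, the dehydrogenase of the demethylation complex, and Dhcr7, which catalyses the last reduction of one branch, passed the test in no genotype and ranged from 0.09 to 0.39 and from 0.20 to 0.31.

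Of the 5 regulators and carriers, Insig1 and Srebf1 rose in all 3 genotypes, Srebf2 rose in TF, and Scap and Stard4 were not called. Insig1, which retains SCAP in the endoplasmic reticulum and is itself a target of SREBP, measured 35.0, 30.3 and 32.9 CPM in WT, 62.9, 56.9 and 87.4 in DF, 70.5, 58.4 and 74.8 in TF, and 56.8 and 49.6 in TFD. All 8 mutant libraries exceeded the 3 WT libraries. The log2 fold changes were 1.07 ± 0.16, 1.05 ± 0.16 and 0.70 ± 0.17 (adjusted p = 0.000254, 0.000373 and 0.00998), and the TFD call was lost without TFD replicate 1 (adjusted p = 0.0765).

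Srebf1 and Srebf2 encode the SREBP factors themselves. Srebf1 measured 57.7, 48.9 and 53.6 CPM in WT and 64.1 to 85.7 in the 8 mutant libraries, which did not overlap WT. Its rises of 0.47 ± 0.12, 0.41 ± 0.12 and 0.39 ± 0.13 were smaller than those of Insig1, and single libraries decided the calls: the DF call was lost without DF replicate 1 (adjusted p = 0.0512), the TF call without WT replicate 2, TF replicate 1 or TF replicate 3 (adjusted p up to 0.0729) and the TFD call with library totals, RLE factors or only the groups compared, and without WT replicate 2 or 3, TF replicate 1 or either TFD library (adjusted p up to 0.133). Srebf2 measured 78.2, 66.5 and 61.7 CPM in WT, 99.1, 69.2 and 101 in DF, 101, 81.9 and 113 in TF, and 74.1 and 97.0 in TFD, so that DF and TFD overlapped WT. It rose in TF by 0.52 ± 0.17 (adjusted p = 0.033, up to 0.116 without WT replicate 2 or 3 or TF replicate 1 or 3), with 0.38 ± 0.17 in DF and 0.31 ± 0.19 in TFD. Scap, the sterol sensor that escorts SREBP, had 0.14, 0.18 and 0.08, and Stard4, a cholesterol carrier, had 0.39, 0.36 and 0.39 with SEs of 0.20 to 0.22.

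The fatty acid genes did not move in 1 direction. Of the 10 genes, 4 rose and 3 fell in DF, 2 rose and 1 fell in TF, and 2 rose and 2 fell in TFD. The TF and TFD counts were near the shares of all genes given above. Elovl6 and Scd2 rose and Scd1 fell in every mutant genotype. The median log2 fold changes of 0.34, 0.14 and 0.26 stood beside ranges from -6.13 to 0.64 in DF, from -4.33 to 0.85 in TF and from -5.97 to 0.87 in TFD. Single libraries moved these small counts: without WT replicate 3, 2 genes rose in DF, without WT replicate 1, 4 rose in TF, without TF replicate 3, 2 fell in TF (Scd1 and Acss2), and without TFD replicate 2 no gene rose in TFD.

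Scd1 (chr19:44394450-44407709, minus strand), a delta-9 desaturase that makes oleate and palmitoleate, had the greatest change of all 33 genes in each comparison with WT. It measured 130, 134 and 90.2 CPM in WT, 2.46, 1.35 and 1.19 in DF, 2.34, 1.15 and 14.5 in TF, and 1.81 and 1.96 in TFD. The highest mutant library, TF replicate 3, was still far below the lowest WT library, and the other 7 mutant libraries lay within a narrow low band. These levels rest on 1007 to 1585 counts per WT library and 12 to 31 counts per mutant library, except 159 in TF replicate 3. Scd1 was 70-fold lower in DF (log2 -6.13 ± 0.66), 20.1-fold lower in TF (-4.33 ± 0.57) and 62.5-fold lower in TFD (-5.97 ± 0.77), with adjusted p = 3.17e-05, 0.000147 and 0.000168. Without TF replicate 3 the TF value was -6.07.

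Scd2 (chr19:44293676-44306862, plus strand), the neighbouring desaturase of the same activity, went the other way. It measured 71.9, 75.5 and 82.6 CPM in WT, 136, 104 and 97.4 in DF, 131, 104 and 148 in TF, and 110 and 169 in TFD, with no overlap. The rises were 0.55 ± 0.18 (adjusted p = 0.0278), 0.74 ± 0.18 (adjusted p = 0.00737) and 0.87 ± 0.20 (adjusted p = 0.00619) on the log2 scale. The DF call was lost with library totals and without WT replicate 1, 2 or 3 or DF replicate 1 (adjusted p up to 0.15), and the TFD call without TFD replicate 2 (adjusted p = 0.087). Both genes lie 87587 bases apart on opposite strands. Per kilobase, the ratio of Scd1 to Scd2 was 2.04, 2.0 and 1.23 in the WT libraries, 0.0137 to 0.0203 in DF, 0.0201, 0.0124 and 0.111 in TF, and 0.0185 and 0.0130 in TFD. Scd1 was thus the higher of the pair in WT and the lower in every mutant library.

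TF replicate 3, the mutant library highest in Scd1, was also the mutant library highest in B-lineage (102 CPM) and erythroid markers (1490 CPM). It was likewise the highest in T and NK markers, at 126 CPM against 97.5 to 104 in WT and 53.5 to 89.3 in the other mutant libraries. The macrophage genes C1qa and C1qb, named after their values were seen, stood at 23.5 and 24.4 CPM in it, 10.6 to 20.8 and 16.3 to 25.5 in WT, and 2.54 to 8.92 and 4.68 to 10.8 in the other mutant libraries. Those genes are 2 of the 10 monocyte and macrophage markers, of which 7, 7 and 6 were higher than in WT in DF, TF and TFD, such as Csf1r at 156 to 175 CPM in WT and 356 to 499 in the mutant libraries. Scd1 and both B-lineage and erythroid lists were lower than in WT in all 3 mutant genotypes, and the part of all these markers in its decrease was not tested. Fat cells express Scd1 as well. Of 8 adipocyte markers, listed after the values were seen, 3 (Lpl, Fabp4 and Pnpla2) were among the genes tested, and they did not share a direction. Lpl, which macrophages express too, measured 17.6 to 21.8 CPM in WT and 45.3 to 73.2 in DF and rose in DF and TF, whereas Fabp4 fell in DF, from 3.09 to 3.31 CPM in WT to 0.708 to 2.08, and Pnpla2 was called in no genotype. Their sum, mostly Lpl and Pnpla2, was 50.1 to 53.6 CPM in WT, 74.5 to 109 in DF, 52.9 to 73.2 in TF and 54.5 to 74.0 in TFD.

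**Figure D2:**
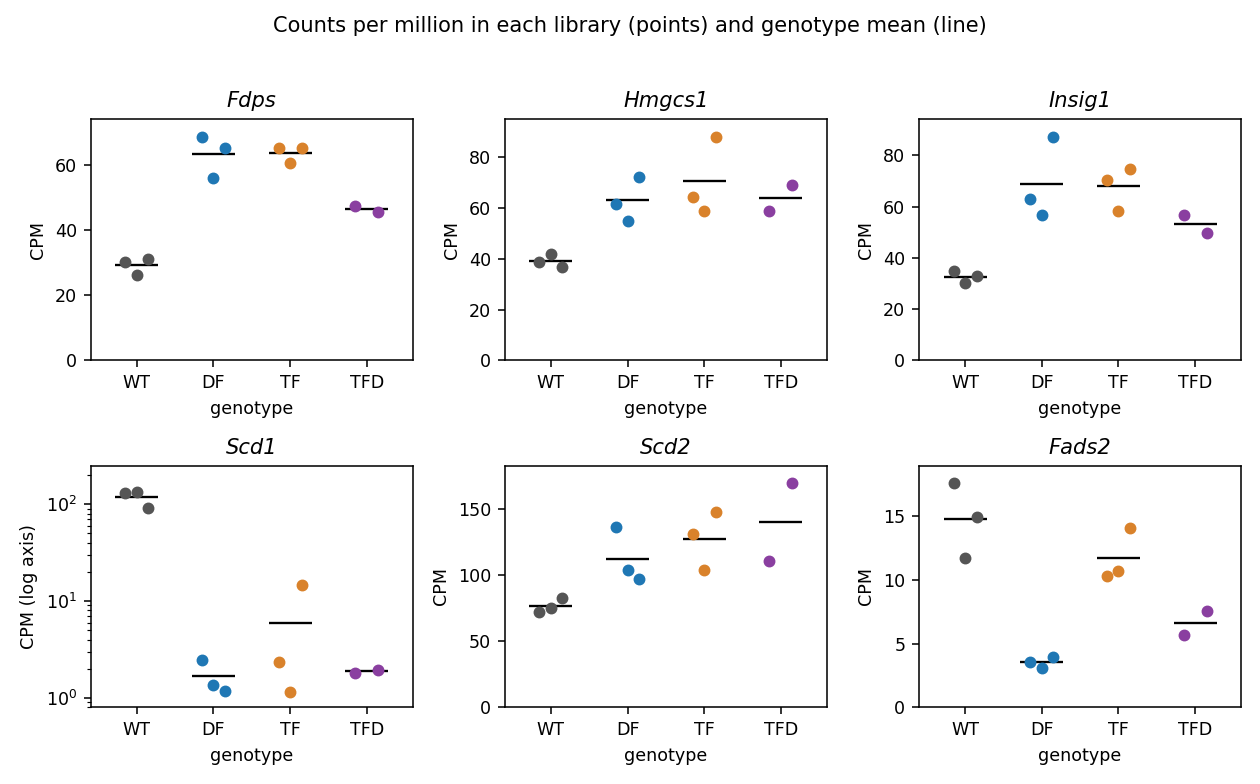
CPM (y axis, from 0, except a log axis for Scd1) of Fdps, Hmgcs1, Insig1, Scd1, Scd2 and Fads2 in each library (points) by genotype (x axis), with the genotype mean as a line. The 3 sterol genes and Scd2 lie above WT in every mutant library, Scd1 lies below, and Fads2 falls furthest in DF at 3.09 to 3.96 CPM.

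Fads1 and Fads2, the delta-5 and delta-6 desaturases of polyunsaturated fatty acids, were the genes of the set that differed between the double mutants. Fads2 (chr19:10064164-10101503, minus strand) measured 17.6, 11.8 and 15.0 CPM in WT, 3.57, 3.09 and 3.96 in DF, 10.3, 10.7 and 14.0 in TF, and 5.69 and 7.57 in TFD. DF and TFD lay wholly below WT, whereas TF overlapped it. It fell by 2.07 in DF on the log2 scale (SE 0.21, adjusted p = 2.48e-05) and fell by 1.17 in TFD (SE 0.23, adjusted p = 0.00256), with -0.34 ± 0.19 in TF (adjusted p = 0.187). Fads1 (chr19:10182888-10196872, plus strand) measured 29.3, 20.4 and 25.5 CPM in WT, 17.4, 12.4 and 14.0 in DF, 25.1, 24.8 and 28.2 in TF, and 18.3 in both TFD libraries. It fell by 0.79 in DF (SE 0.16, adjusted p = 0.00203), with 0.05 ± 0.15 in TF and -0.46 ± 0.18 in TFD (adjusted p = 0.0711).

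The difference between the double mutants was tested directly. Of the 33 genes, Fads1 and Fads2 were called between DF and TF, both lower in DF, by -0.84 ± 0.16 (adjusted p = 0.01) and -1.73 ± 0.21 (adjusted p = 0.00217). Of all genes, 1.67% were called higher and 4.27% lower in DF, so that the number of calls in the set was near the share of all genes. With library totals the split of all genes went from 203 higher and 520 lower to 106 higher and 659 lower. The Fads1 call was lost without DF replicate 2 (adjusted p = 0.0687), and the Fads2 call held in every alternative tried. No sterol gene was called between DF and TF by edgeR or DESeq2; 1 of them, Hsd17b7 (0.58 ± 0.21), had an unadjusted p under 0.05, and the median sterol difference was -0.01.

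Fads1 and Fads2 lie 81384 bases apart on opposite strands. Per kilobase, the ratio of Fads2 to Fads1 was 1.32 to 1.37 in WT, 0.471 to 0.651 in DF, 0.944 to 1.14 in TF, and 0.712 and 0.951 in TFD, so that the ratio fell out of the WT range in every mutant library. Fads3, a paralog of both, was named by the rule for the other lipid genes and measured 13, 10.3 and 15.1 CPM in WT, 1.98, 0.965 and 0.792 in DF, 5.41, 4.83 and 11.7 in TF, and 2.94 and 4.28 in TFD. It fell by 3.34 in DF (SE 0.40, adjusted p = 6.06e-05) and was lower in DF than in TF by -2.52 ± 0.41 (adjusted p = 0.00482). Erythroid markers showed the same order, with 8 of 9 called lower in DF than in TF and summed levels of 294 to 427 CPM in DF, 552 to 1490 in TF and 517 to 652 in TFD. Also lower in DF than in TF were 2 of 9 T and NK markers and 2 of 10 monocyte and macrophage markers, and 12 of 12 B-lineage markers had values below 0, 8 of them at an unadjusted p under 0.05. Of all 12175 genes, 5602 had values below 0 in the same comparison, 1258 of them at an unadjusted p under 0.05. Neutrophil markers were 12 of 12 on the higher side in DF, 1 of them called, beside 6573 of all genes above 0. The part of these markers in the desaturase differences was not tested.

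**Figure D3:**
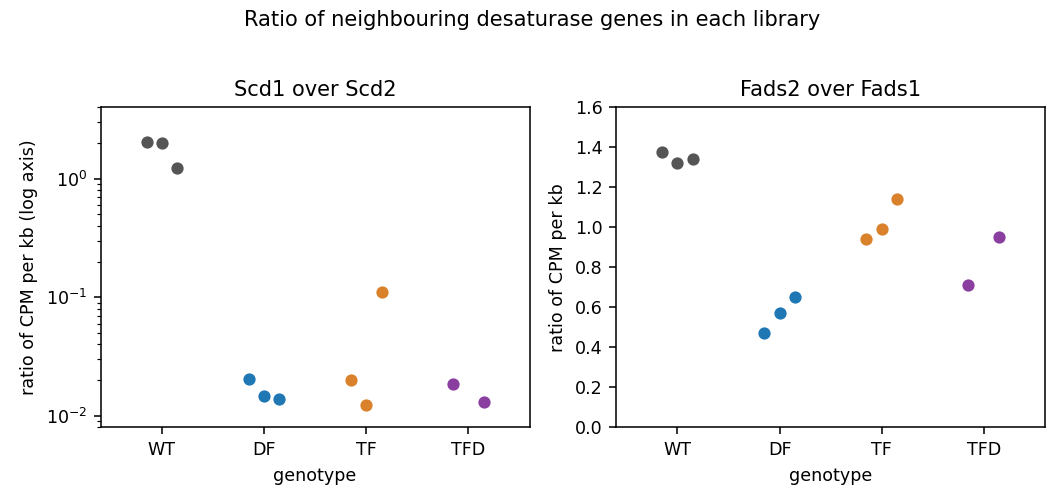
Ratio of levels per kilobase (y axis) of Scd1 to Scd2 (left, log axis) and of Fads2 to Fads1 (right, from 0) in each library (points) by genotype (x axis). Scd1 exceeds Scd2 in WT only, with TF replicate 3 at 0.111 above the other mutant libraries, and Fads2 to Fads1 is lowest in DF.

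The elongases rose or showed values above 0. Elovl6, which extends palmitate to stearate, measured 21.1, 22.4 and 20.0 CPM in WT, 30.8, 33.5 and 34.2 in DF, 40.8, 33.1 and 40.4 in TF, and 28.6 and 39.3 in TFD. It did not overlap WT and rose by 0.64 ± 0.14, 0.85 ± 0.14 and 0.68 ± 0.15 (adjusted p = 0.0032, 0.000585 and 0.00535), the TFD call being lost without TFD replicate 2 (adjusted p = 0.0697). Elovl5, the elongase of polyunsaturated chains, rose in DF by 0.40 ± 0.10 (adjusted p = 0.00858, and 0.0645 without WT replicate 3), with 0.20 ± 0.10 in TF and 0.32 ± 0.11 in TFD (adjusted p = 0.052).

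Of the genes that make the carbon chain itself, Acly was called in DF and the others in no genotype. Acly, which splits citrate into cytosolic acetyl-CoA, measured 243, 222 and 209 CPM in WT, 296, 288 and 325 in DF, 269, 289 and 254 in TF, and 288 and 257 in TFD, above WT in every mutant library. It rose in DF by 0.43 ± 0.10 (adjusted p = 0.00573), with 0.27 ± 0.10 in TF and 0.28 ± 0.11 in TFD. Fasn, the fatty acid synthase, had 0.39 ± 0.15, 0.30 ± 0.15 and 0.39 ± 0.16 (adjusted p = 0.0523, 0.132 and 0.0986), and its DF value passed the threshold under the replicate block and without WT replicate 1, DF replicate 3 or TF replicate 3. Acaca, the acetyl-CoA carboxylase, had 0.28, 0.07 and 0.24. Acss2, which makes acetyl-CoA from acetate, was the only one of the 4 with values below 0, at -0.29, -0.24 and -0.57 (adjusted p = 0.222, 0.325 and 0.0572). Its TFD value passed the threshold under DESeq2, with RLE factors, with only the groups compared and without TF replicate 1, TF replicate 3 or TFD replicate 1, and the adjusted p ran from 0.0164 to 0.311 over all alternatives.

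Set beside each other per library, the sterol mean lay apart from WT in every mutant library and the fatty acid mean did not. The mean log2 level of the 23 sterol genes, relative to the WT mean, was -0.06 to 0.04 in the WT libraries, 0.57, 0.46 and 0.75 in DF, 0.56, 0.43 and 0.77 in TF, and 0.34 and 0.33 in TFD. All mutant libraries were above all WT libraries, and both TFD libraries were below the lowest double mutant. The mean of the 10 fatty acid genes was -0.54, -0.75 and -0.70 in DF, -0.41, -0.56 and 0.01 in TF, and -0.62 and -0.46 in TFD, against -0.07 to 0.12 in WT, so that TF replicate 3 lay inside the WT range. The lower level of the other 7 mutant libraries was carried by 1 gene: without Scd1 the means were -0.11 to 0.11 in WT, 0.02, -0.12 and -0.04 in DF, 0.17, 0.11 and 0.35 in TF, and -0.02 and 0.15 in TFD. TF replicates 1 and 3 and TFD replicate 2 were then above the WT range, and DF replicate 2 was just below it. The summed level of the 10 genes was not lower in the mutants. It was 757 to 870 CPM in WT, 837 to 919 in DF, 810 to 891 in TF and 823 to 910 in TFD. The contrast between the groups was described only and has no test.

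**Figure D4:**
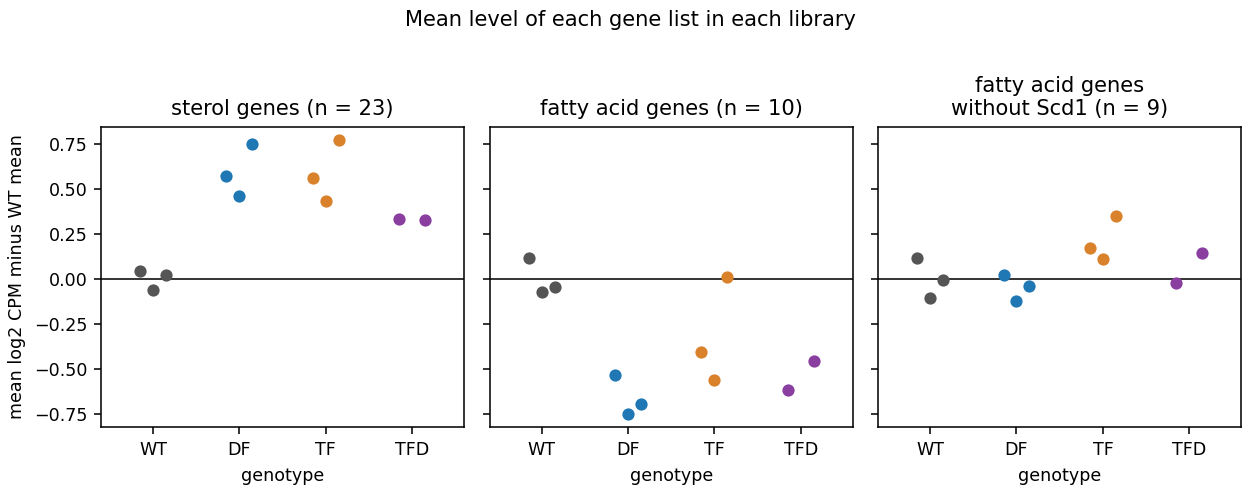
Mean log2 CPM of the sterol genes (left), the fatty acid genes (middle) and the fatty acid genes without Scd1 (right), as the difference from the WT mean (y axis), in each library (points) by genotype (x axis). Sterol means are 0.43 to 0.77 in the double mutants and 0.33 to 0.34 in TFD, and without Scd1 the fatty acid means run from -0.12 to 0.17 in the mutant libraries, except 0.35 in TF replicate 3, beside -0.11 to 0.11 in WT.

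From sample-wise pathway scores, the study described lower lipid, steroid and cholesterol synthesis in the triple than in the double mutants. Here the same genotypes were compared gene by gene, which is a different measure. None of the 33 was called by edgeR in TFD against DF, against TF or against the average of both double mutants, where 0.00%, 0.0164% and 0.0164% of all genes were called. DESeq2 called 2 of them in TFD against DF, Hsd17b7 (-0.89, adjusted p = 0.0379) and Fads2 (0.94, adjusted p = 0.0476), where it called 155 higher and 103 lower of all 12175 genes, and 0 in the other comparisons. With edgeR the all-gene number in TFD against DF depended on the setting. It was 109 higher and 26 lower with only the groups compared, 34 and 8 with the replicate block, and 173 and 53 without TF replicate 3. It stayed at 0 with library totals, RLE factors and no filter. Against the mean of the double mutants, 22 of 23 sterol genes had a value below 0, the exception being Stard4 (0.01), and the median was -0.26 beside 0.00 over all genes, 6154 of 12175 of which were below 0. At an unadjusted p under 0.05 stood 8 sterol genes, all lower in TFD, and 0 fatty acid genes, beside 996 of 12175 genes overall. Fdps had the lowest adjusted p, 0.34 (-0.45 ± 0.11), and Hsd17b7 (-0.63 ± 0.22) and Msmo1 (-0.55 ± 0.19) the lowest values of the sterol genes. Scd1 had -0.73 ± 0.79. Fdps was below every double mutant library in both TFD libraries. The median of the fatty acid genes was -0.02.

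In the pairwise comparisons the sterol median was -0.28 against DF and -0.28 against TF, with 21 and 22 of 23 genes below 0 and 4 and 3 at an unadjusted p under 0.05, beside 1727 and 1068 of all 12175 genes, of which 881 and 694 were lower. TFD had 2 libraries, which differed in the summed level of neutrophil markers given above, 49883 and 25682 CPM. The part of those markers in the TFD values was not tested. The TFD sterol calls against WT numbered 3 without WT replicate 2 or TFD replicate 1, 4 without WT replicate 3, and 7 with all libraries, while 1395, 1324, 1374 and 1789 of all genes were called higher without WT replicate 2, TFD replicate 1, WT replicate 3 and with all, so that the TFD number depended on single libraries. It stayed below the numbers in DF (11 to 14) and TF (9 to 14) whichever library was left out, and that difference in counts has no test.

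**Figure D5:**
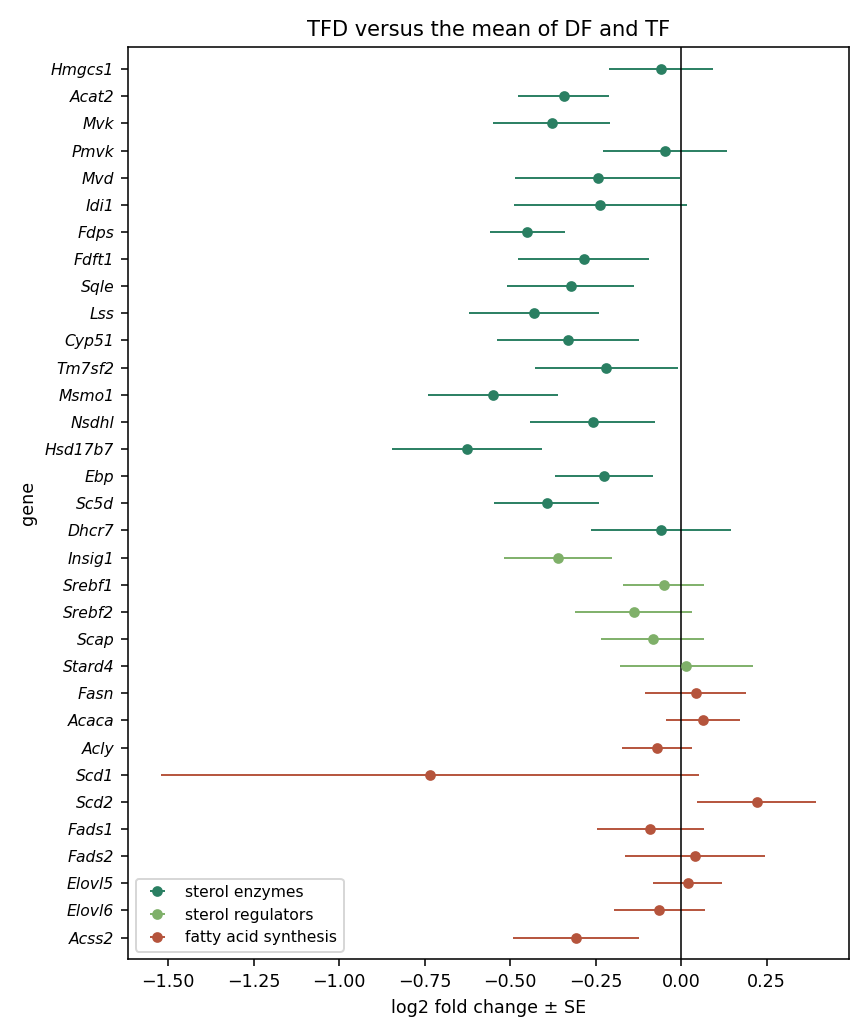
Log2 fold change (x axis, bars ± SE) of each gene (y axis) in TFD against the averaged double mutants, with colours for sterol enzymes, sterol regulators and fatty acid genes. All 18 sterol enzymes have values below 0, none passed the test, and the fatty acid genes lie on both sides.

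Other lipid genes are given as counts, to be read beside the shares of all genes called against WT, which were 21.0% higher and 16.6% lower in DF, 19.0% and 15.6% in TF, and 14.7% and 11.6% in TFD. Several counts lie near those shares, such as the 5 of 22 glycerolipid genes lower in DF and the 5 of 19 oxidation genes higher in TF. In a list of 15 other synthesis and uptake genes, 13 were tested and 4 rose and 0 fell in DF, 4 rose and 1 fell in TF, and 4 rose and 1 fell in TFD. Vldlr, a lipoprotein receptor at 1.73 to 3.20 CPM in WT, fell by 1.96 in TF and fell by 1.74 in TFD, with -0.64 in DF.

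Among 15 tested genes of sterol efflux, storage and oxysterols, 7 rose and 2 fell in DF, 4 rose and 2 fell in TF, and 7 rose and 2 fell in TFD. The same 2 genes fell in all genotypes, Abca1 and Mylip, both known targets of the oxysterol receptor LXR; Mylip was named after its values were seen. Abca1, the exporter of cellular cholesterol, measured 105, 94.7 and 77.3 CPM in WT, 29.5, 28.1 and 22.8 in DF, 41.9, 33.5 and 49.2 in TF, and 44.3 and 51.1 in TFD, and fell by 1.78, 1.15 and 0.95 on the log2 scale. Mylip, a ubiquitin ligase, measured 54.5 to 58.2 CPM in WT and 22.2 to 30.6 in the mutant libraries, and fell by 1.11, 1.06 and 0.89. Abcg1, another LXR target also named afterwards, had 0.13, 0.29 and 0.59 and rose in TFD (adjusted p = 0.0436), so that these targets did not share 1 direction. Cyp27a1, the sterol 27-hydroxylase, rose by 1.5, 2.11 and 2.09, from 12.7 to 16.3 CPM in WT to 36.6 to 67 in the mutants.

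In 22 other fatty acid and glycerolipid synthesis genes, 1 rose and 5 fell in DF, 3 rose and 7 fell in TF, and 1 rose and 5 fell in TFD. Gpam, the acyltransferase that starts glycerolipid synthesis, measured 33.7, 39.9 and 41.9 CPM in WT and 12.2 to 16 in the mutant libraries, without overlap, and fell by 1.48, 1.45 and 1.46. Of 19 tested genes of fatty acid oxidation, 6, 5 and 4 rose and 0 fell by edgeR in DF, TF and TFD, with 0, 1 and 0 lower at an unadjusted p under 0.05. Echs1, the mitochondrial enoyl-CoA hydratase, measured 31.8 to 36.3 CPM in WT and 55.5 to 82.9 in the mutants, and rose by 1.21, 0.98 and 0.99.

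On the scale of counts per kilobase, the WT levels of the 33 genes ran from 50.7 CPM per kb for Acly, 34 for Elovl5 and 24.4 for Scd1 down to 2.14 for Tm7sf2 and 1.57 for Lss. Some counts can be shared between loci. The share of 50-base words of the mm10 transcripts that occur in another gene was 39.1% for Acat2, 30.4% for Acaca, 26.2% for Fdps, 17.7% for Idi1, 9.87% for Tm7sf2 and 9.38% for Fdft1, and 4.56% for Scd1 and 3.97% for Scd2. Exons overlapped those of another gene over 26.7% of Fdps and 12.1% of Tm7sf2 on the same strand, and over 18.3% of Fdft1 (Ctsb), 13.2% of Scap and 12.1% of Hmgcs1 on the other strand. Whether the counting used strand is not given in the sources used here, so the values of these genes carry that uncertainty.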

How the data were processed

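Gene-level read counts of 11 libraries (3 WT, 3 DF, 3 TF and 2 TFD) were taken from the table deposited by the authors, who aligned reads to mm10 with STAR, counted them with featureCounts and kept genes above 0.5 CPM (counts scaled by library size) in more than 3 libraries; tool versions are not given in the sources used here. The deposited log2 CPM columns were read only for their header and entered no test, and the deposited gene lengths were used for levels per kilobase. The members and lists were chosen with earlier results of these data known. Every member is named, with the called gene of greatest absolute log2 fold change in each comparison with WT from each further list; other names are said to be chosen afterwards, and some genes of these lists are not reported here.

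Counts of all 4 genotypes were fitted together in edgeR 4.0.16 (R 4.3.3) with TMM factors and the quasi-likelihood test, on 12175 genes above 0.5 CPM in at least 4 libraries. P-values were two-sided and Benjamini-Hochberg adjusted over all these genes, and genes were called at an adjusted p under 0.05. SE is the log2 fold change divided by the square root of F. The study's methods used DESeq2, which was the alternative (1.42.0), with library totals, RLE factors, no filter, only the groups compared, a 2-fold requirement, a replicate block, each library left out and a pseudocount of 1 CPM. CPM levels use library totals times TMM factors, and list levels are mean log2 CPM with a prior count of 0.25. The labels do not say whether libraries came from separate mice, so p-values measure the spread between these libraries. The lowest correlation of log2 CPM within a genotype was 0.963 and 0 libraries were identical. In simulated DF versus WT counts of 12175 genes, edgeR recovered 75 of 100 genes changed by 1 on the log2 scale and 95 of 100 changed by 2, with 18 false calls.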

Additional observations from a re-analysis of the deposited data

Results flagged for a closer look

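Fads1 and Fads2 were picked out because a direct test of the difference between DF and TF called them. The number of calls in the set was near the share of all genes called in that test. Fads1 differed by -0.84 and Fads2 by -1.73 on the log2 scale, lower in DF in both cases. Levels in single libraries were 12.4 to 17.4 CPM in DF and 24.8 to 28.2 CPM in TF for Fads1, and 3.09 to 3.96 CPM in DF and 10.3 to 14.0 CPM in TF for Fads2.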

How the results depend on the processing

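The direction of all medians of the sterol genes against WT held under every alternative, and of the single-gene alternatives 1610 kept direction and side of the threshold, 53 lost the call, 28 gained one and 26 turned sign, all of the last in genes that were not called. Requiring a 2-fold change left 4 sterol genes higher in DF, 5 in TF and 0 in TFD, 0 fatty acid genes higher in DF, 0 in TF and 0 in TFD, with 2 (Scd1 and Fads2), 1 (Scd1) and 2 (Scd1 and Fads2) lower, and 1 gene between DF and TF; 664, 759 and 705 of all 12175 genes were then higher and 869, 577 and 645 lower in DF, TF and TFD. DESeq2 called 2 of the genes in TFD against DF, where edgeR called 0, beside 155 higher and 103 lower of all genes against 0 by edgeR. A pseudocount of 1 CPM moved the mean sterol level in TFD from 0.33 to 0.31. The replicate numbers did not pair the libraries: of 15 pairs with the same number, 3 had correlated deviations over 0.1 (range -0.30 to 0.25). With the replicate block, Lss in TFD became 0.055 and Hsd17b7 in TFD 0.071, and the sterol genes higher in TFD numbered 9 in place of 7, with Sqle and Fdft1 gained. Msmo1 in TFD was -0.015 with DESeq2, -0.013 with RLE factors and -0.0002633 with only the groups compared. The cause of these shifts was not tested.

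Leaving out 1 library at a time, the fatty acid genes higher in DF numbered 2 to 5, those higher in TF 2 to 4, those lower in TF 1 to 2, those higher in TFD 0 to 3, the sterol genes higher in TFD 3 to 7, and the genes called between DF and TF 1 to 3. Log2 fold changes that turned sign ranged from -0.21 to 0.091 for Pmvk in DF, -0.20 to 0.13 for Pmvk in TF, -0.33 to 0.10 for Pmvk in TFD, -0.043 to 0.30 for Idi1 in TF, -0.27 to 0.37 for Idi1 in TFD, -0.077 to 0.17 for Fads1 in TF, -0.10 to 0.021 for Lss in TFD, -0.11 to 0.16 for Msmo1 in TFD, -0.038 to 0.17 for Nsdhl in TFD, -0.25 to 0.18 for Hsd17b7 in TFD, -0.082 to 0.45 for Dhcr7 in TFD and -0.10 to 0.23 for Scap in TFD. With 2 or 3 libraries a genotype, small log2 differences lie within the spread, and the TFD values rest on the fewest libraries.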
